A study of Mus musculus with 947 samples.

Results

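Box C/D small nucleolar RNAs (snoRNAs) were measured in mouse tissues over the lifespan and after parabiosis. They were taken as the RNAs whose gene name starts with Snord, leaving out the Snord64, Snord115 and Snord116 names, and rows with identical values counted once. This gave 80 of the 7490 distinct RNAs of the aging table (from 84 rows) and the same 80 of the 4894 distinct RNAs of the parabiosis table. The aging cohort held 769 small RNA libraries of C57BL/6JN mice from 16 tissues and 10 ages, namely 1 month and every 3 months from 3 to 27 months, with 1 to 6 libraries per tissue and age and females up to 21 months only. The tissues were bone, bone marrow, brain, heart, kidney, limb muscle, liver, lung, pancreas, skin, small intestine, spleen and 4 fat depots, namely brown fat (BAT), gonadal fat (GAT), fat of the mesentery (MAT) and fat under the skin (SCAT). The parabiosis cohort held 176 libraries of 6 tissues (GAT, heart, kidney, limb muscle, liver and MAT) from male mice that were sewn together in pairs and so shared a circulation. Its 4 groups were isochronic young (IY, a young mouse joined to a young mouse, 3 or 4.5 months), heterochronic young (HY, a young mouse joined to an aged one, 4 months), heterochronic aged (HA, 19 months) and isochronic aged (IA, 19 months), with 6 to 8 libraries per tissue and group. According to the metadata of the study, the HY mice differed in genotype from the other groups, which were C57BL/6J and C57BL/6JN mice. The genotype and the group of the HY mice therefore cannot be told apart. The sources of the study differ on which of these strains most of the other mice belonged to, and strain is not used here.

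A box C/D snoRNA carries a box C near its 5′ end and a box D near its 3′ end, which fold together and bind the proteins Nop56, Nop58, fibrillarin and Snu13. The stretch before box D, or before a second inner copy of it, pairs with a target RNA, and fibrillarin methylates the 2′ hydroxyl of the target base that lies opposite a fixed position of that duplex. Most targets lie in ribosomal RNA, some in the U6 spliceosomal RNA, a few snoRNAs take part in the cleavage of the ribosomal RNA precursor instead, and those without a known target are called orphans. In mammals most box C/D snoRNAs are cut from the introns of host genes, many of which code for ribosomal proteins or produce long noncoding RNAs.

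The letters of these boxes were found in most of the 80 members. In their GENCODE vM21 transcript sequences, TGATGA stood in the first 30 bases of 54 members (67.5%) and CTGA in the last 30 bases of 79 members (98.8%), whereas TGATGA stood there in 18.9% and CTGA in 59.9% of the other 750 RNAs of the snoRNA class with a sequence. Only the given strand was searched and only these exact letters. The members were 64 to 238 bases long (median 78.5), lay on 17 chromosomes, and 77 of them lay within 53 host genes. Ribosomal protein genes hosted 21 members (14 genes), and 55 members lay in protein-coding hosts. The sequences of the members that set the tissue pattern are given here, 5′ to 3′, with TGATGA of box C and CTGA of box D in capitals where the search found them. Coordinates are those of GRCm38.

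Snord107 (chr7:59980876-59980945, minus strand): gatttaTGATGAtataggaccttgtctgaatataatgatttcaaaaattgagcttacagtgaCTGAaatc
Snord78 (chr1:161036984-161037049, plus strand): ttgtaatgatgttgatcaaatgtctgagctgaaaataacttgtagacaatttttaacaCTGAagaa
Snord123 (chr15:32241853-32241923, minus strand): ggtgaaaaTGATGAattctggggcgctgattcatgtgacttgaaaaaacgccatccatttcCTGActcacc
Snord53 (chr17:71640879-71640956, plus strand): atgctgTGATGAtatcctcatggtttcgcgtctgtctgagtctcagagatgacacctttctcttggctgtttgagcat
Snord118 (chr11:69073427-69073561, plus strand): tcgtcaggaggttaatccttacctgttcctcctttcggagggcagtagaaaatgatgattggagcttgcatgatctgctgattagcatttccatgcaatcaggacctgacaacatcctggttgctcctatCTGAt
Snord90 (chr2:37400047-37400157, minus strand): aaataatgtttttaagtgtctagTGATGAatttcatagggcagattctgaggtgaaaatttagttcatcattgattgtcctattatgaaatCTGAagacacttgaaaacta

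Snord107, Snord78 and Snord123 had the widest ranges between tissues, Snord53 and Snord78 marked bone marrow and small intestine, Snord118 marked liver, and Snord90 was the most abundant member in most tissues. Snord118 (U8) is longer than the others and acts in the processing of the large-subunit ribosomal RNAs. Its TGATGA lies past the first 30 bases and is therefore left in lower case, as is the CTGA of Snord53, the only member without CTGA in its last 30 bases.

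Levels are given in rpmm, the reads of an RNA scaled to the mapped reads of its library, as the deposited tables hold them. Reads were at most 50 bases long, so that a value counts fragments of a snoRNA rather than whole molecules. Total depth was 2.29 to 167 M reads per aging library (median 20.1 M) and 9.20 to 47.6 M reads per parabiosis library, and the 80 members held at least 4037 reads of every aging library. Each of the miRNAs used to check the tissue labels was highest in its tissue, such as miR-124-3p in brain and miR-122-5p in liver, except miR-196a-5p, whose median was 1455 rpmm in kidney and 1527 rpmm in limb muscle. Bone, GAT, MAT and SCAT had no miRNA of their own in this check. By their miRNA profile 10 aging and 6 parabiosis libraries were closest to another tissue than their label. In 78 aging and 6 parabiosis libraries the summed miRNA level was far below the tissue's median (under a ratio of 2/3). Results were therefore also computed without each of these sets, the latter an alternative chosen after the data had been seen. Each library was labelled as a sample of its own, and p-values measure the spread between these libraries. In the parabiosis cohort joined mice were counted as separate libraries, without a term for the pair.

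The 80 members together were most abundant in spleen and least abundant in BAT and limb muscle. In spleen their summed level was 7809 to 320453 rpmm with a median of 236077 rpmm (n = 55). Marrow followed with a median of 158919 rpmm and liver with 155327 rpmm. Limb muscle had a median of 49316 rpmm (1634 to 82500, n = 47) and BAT of 43928 rpmm (3164 to 93936, n = 31). The BAT libraries formed 2 sets, 11 libraries with 3164 to 5477 rpmm and 20 with 28478 to 93936 rpmm. The 11 libraries also had less miRNA (62316 to 200133 rpmm against 177389 to 472167 rpmm) while their ribosomal RNA fragments (361763 to 581013 rpmm) overlapped with those of the other 20 libraries (83483 to 560037 rpmm). Without the libraries of low summed miRNA level the median in BAT was 56344 rpmm (n = 21) and that in limb muscle, then the lowest tissue, 49710 rpmm (n = 46). In these bulk samples, fewer cells of a type and less RNA per cell cannot be told apart.

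**Figure D1:**
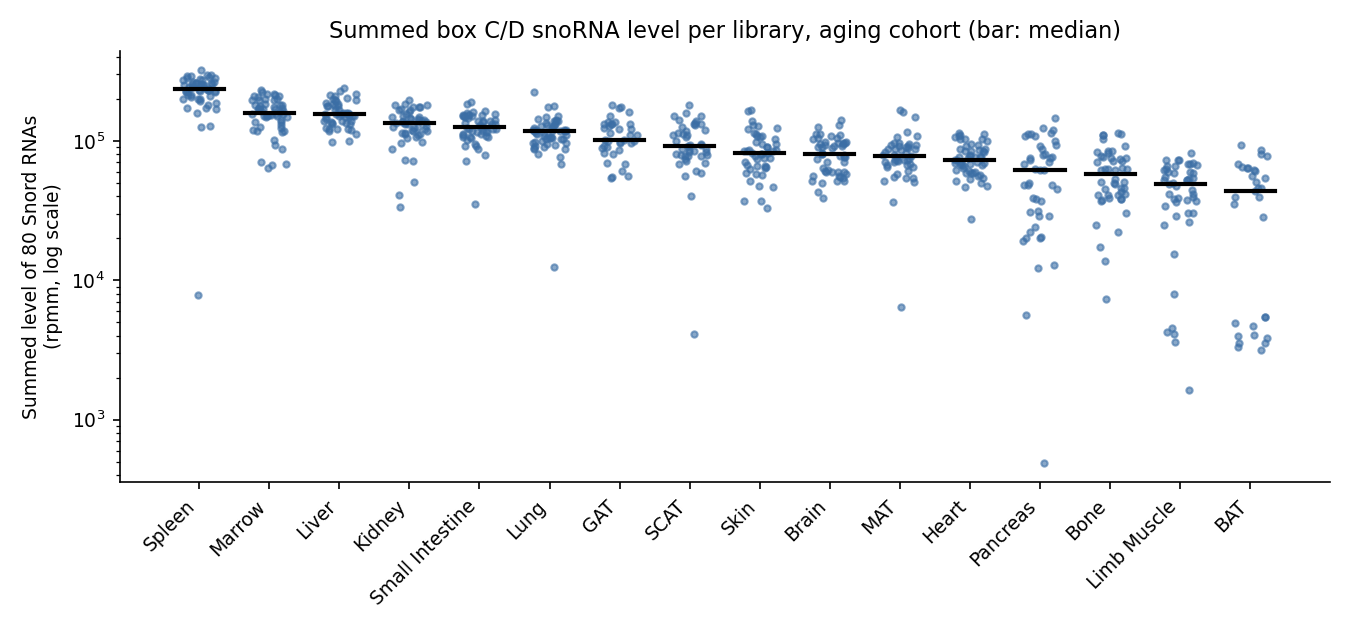
Summed level of the 80 box C/D snoRNAs (rpmm, log scale) in each library of the aging cohort, by tissue in the order of the medians. Points are libraries and bars are medians, from 236077 rpmm in spleen to 43928 rpmm in BAT, where 11 libraries lie at or under 5477 rpmm.

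Per length, 2 overlapping transcripts of Snord80 and the RNAs Snord42a and Snord90 led the members. Snord80, a guide hosted by Gas5, had a median over the tissues of 7699 rpmm per 100 bases in its transcript of 77 bases and 7319 in that of 81 bases, and both rows count the same reads. Snord42a, which lies in an intron of Rpl23a and guides methylation of 18S ribosomal RNA, had 7688, and Snord90, an orphan in an intron of Rc3h2, had 6400 rpmm per 100 bases. Snord55 (5409), Snord110 (4301), Snord99 (4230), Snord19 (3410), Snord83b (3075) and Snord4a (2991) followed on the same scale. At the other end stood Snord14a (32.7), Snord61 (21.6), Snord53 (6.22) and Snord107 (2.96), so that the highest and lowest member differed 2602-fold. The sequence of Snord42a holds CTGA but no TGATGA in the searched window.

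Snord42a (chr11:78181299-78181363, minus strand): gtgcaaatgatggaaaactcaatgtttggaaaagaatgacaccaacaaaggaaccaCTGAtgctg

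The 10 members highest per length by the median over the tissues, used as a fixed list, held between 43.2% (bone) and 54.4% (brain) of all member reads. This list includes the overlapping transcripts whose rows count the same reads. Among all members, Snord90 was the most abundant in most tissues and held 16.5% of the member reads in brain. Liver was led by Snord118 (8.15%), pancreas by Snord42a (9.22%), and marrow, skin and small intestine by Snord80.

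For each RNA and tissue, the level on the log2(rpmm + 1) scale was compared with the mean of the other 15 tissues, and a pair was called at an adjusted p under 0.05 (limma, Benjamini-Hochberg over all RNAs of the tissue) and a difference of at least 1. Of the 1280 pairs of a member and a tissue, 187 were called higher and 199 lower. Over all 5177 RNAs tested, 7.96% of the pairs were called higher and 6.85% lower. All but 1 member was called in at least 1 tissue (79 of 80).

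Spleen had the most members called higher. There 67 of 80 were higher and 1 lower, against 11.7% higher and 8.07% lower over all RNAs, and the median difference of the members was 1.39, beside -0.04 for all RNAs. Marrow had 41 higher and 2 lower members (14.8% and 5.04% of all RNAs, median difference of the members 1.02), and liver 29 higher and 2 lower (2.7% and 13.3%, median 0.87). Small intestine had 20 higher members (3.05% of all RNAs, median 0.76) and kidney 13 (3.75%, median 0.59). Few members were higher in the fat depots and lung, namely 3 in GAT (3.75% of all RNAs), 2 in SCAT (2.84%), 1 in MAT (4.56%) and 3 in lung (4.4%). In skin no member was called in either direction, where 203 of all RNAs were called higher and 189 lower, with a median difference of the members of -0.01.

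The lower calls fell in BAT and limb muscle above all. In BAT 72 of 80 members were lower (6.74% of all RNAs), with a median difference of -1.94. Without the libraries of low summed miRNA level the count in BAT was 42 and the median -1.06. In limb muscle 58 members were lower (10.3% of all RNAs, median -1.39). Pancreas had 35 lower and 2 higher members (23.5% and 3.84% of all RNAs), bone 16 lower and 2 higher (3.55% and 29.4%), brain 10 lower and 3 higher (8.15% and 10.5%), and heart 3 lower and 1 higher (8.25% and 2.4%).

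The scale moved these counts. When libraries were scaled to their miRNA reads instead of all reads, the median difference of the members was 0.58 in pancreas (-0.78 as deposited), 0.21 in bone (-0.59) and -1.02 in heart (-0.18). With median-ratio scaling it was 0.08 in pancreas, -1.31 in bone and 0.28 in heart. In lung it was -0.30 with miRNA-read scaling (0.43 as deposited). The scaling also moved the median over all RNAs, with miRNA reads from 0.48 to 0.98 in bone, from -0.30 to -0.66 in heart and from -0.38 to -0.10 in pancreas. The direction for the members as a group in pancreas, bone, heart and lung therefore depended on the scaling, whereas in spleen (1.33 to 1.83), liver (0.85 to 1.10), BAT (-2.29 to -1.54) and limb muscle (-2.41 to -1.02) it did not under these 3 scalings. When every library was scaled to its summed member level, which leaves only differences among the members, 51 pairs were called higher and 38 lower. With this scaling 12.9% of the pairs over all RNAs were called higher and 8.79% lower. Of all the pairs of a member and a tissue, 23 were called higher and 16 lower under all 4 scalings, a share that was not counted over all RNAs. They involved 20 members. The members described next are among these.

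**Figure D2:**
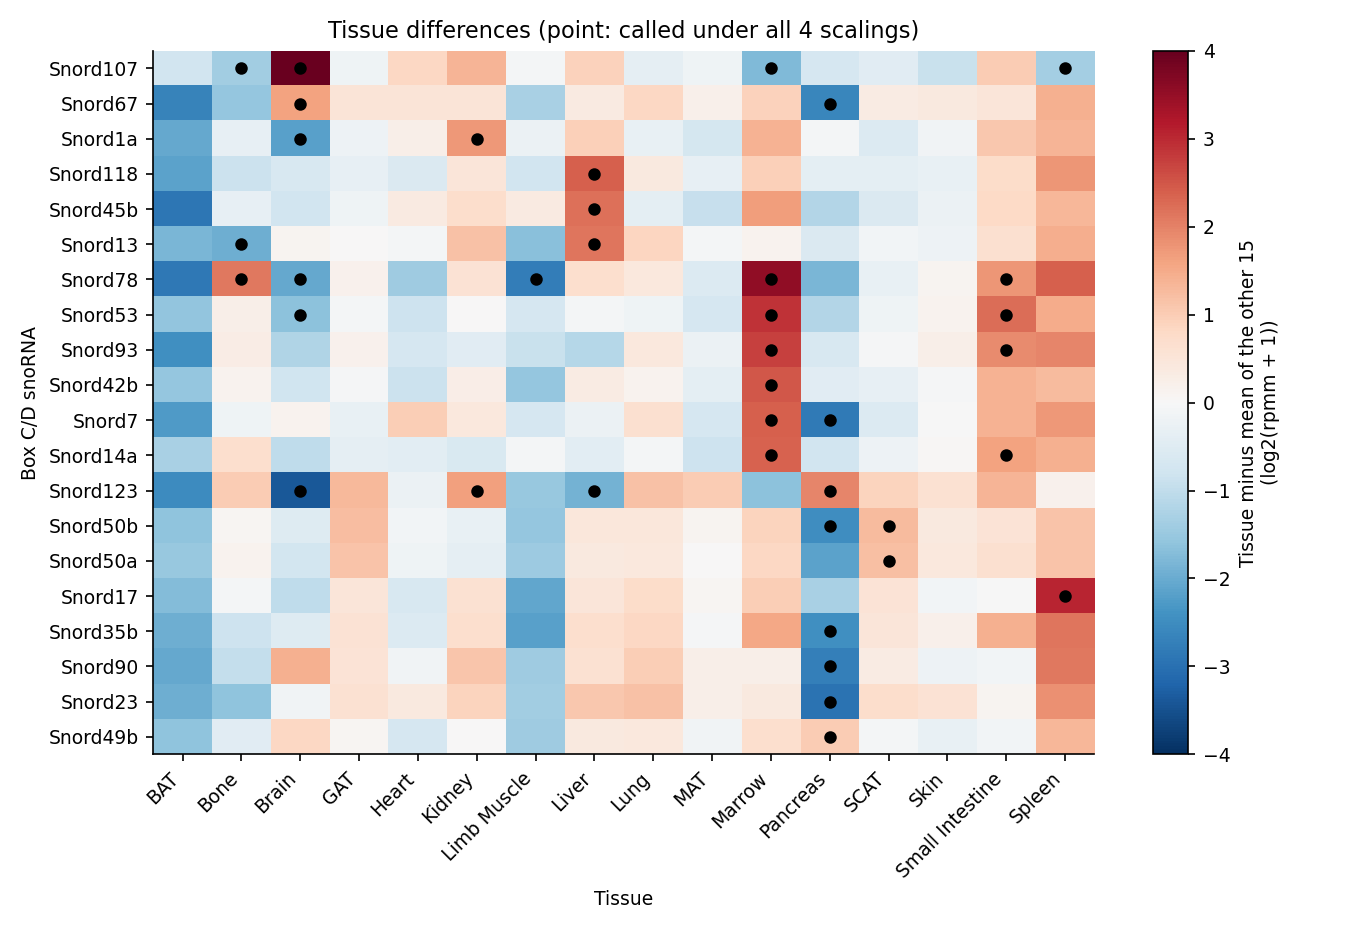
Difference of each tissue from the mean of the other 15 tissues on the log2(rpmm + 1) scale, for the 20 members with a call under all 4 scalings. Red is higher and blue is lower, points mark the 39 pairs called under all 4 scalings, and the strongest red cells are Snord107 in brain (3.95) and Snord78 in marrow (3.54).

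Snord107 was a brain snoRNA in these data. It is an orphan, annotated within Gm38393, and its level in brain was 9.21 to 125 rpmm with a median of 51.1 rpmm (n = 51). Kidney came next with a median of 8.34 rpmm, followed by small intestine (6.38), liver (5.65) and heart (5.52), whose ranges overlapped. The difference of brain from the other tissues was 3.95 ± 0.10 (SE, adjusted p = 8.7e-196). Marrow was lowest, with 0 to 1.00 rpmm (median 0.112, n = 56), and 15 of its 56 libraries held no read, where 3 reads correspond to 0.154 rpmm at the median depth. Marrow (-1.75 ± 0.09), bone (-1.39 ± 0.10) and spleen (-1.36 ± 0.09) were called lower. In the parabiosis cohort, which had no brain, Snord107 was again highest in kidney (median 12.8 rpmm, n = 29), then in heart (8.80) and liver (6.68).

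Snord78, a guide of 28S ribosomal RNA hosted by Gas5, was highest in marrow. There it had 520 to 1766 rpmm with a median of 1047 rpmm (n = 56), followed by spleen (median 519), small intestine (349) and bone (340). Limb muscle (18.7 rpmm), brain (25.7) and BAT (25.8) were lowest. The marrow libraries all lay above the highest library of limb muscle (82.0 rpmm). Marrow differed from the other tissues by 3.54 ± 0.14 (adjusted p = 3e-106), bone by 2.12 ± 0.15, small intestine by 1.77 ± 0.14, brain by -2.05 ± 0.14 and limb muscle by -2.76 ± 0.15. The other Gas5 members varied less. The range of tissue medians was 5.73 on the log2 scale for Snord78, 2.68 for Snord47 and 2.93 for Snord80, although they lie in the same host. The RNAs with the tissue medians most like those of Snord78 were miR-19a-5p (Spearman rho = 0.965), Snord38a (0.962) and, among the long noncoding RNAs, Mir17hg (0.956), over 16 tissues and among 4010 RNAs.

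Snord53, Snord93, Snord42b, Snord7 and Snord14a were also higher in marrow under every scaling. Snord53 had 16.9 to 91.2 rpmm in marrow (median 40.04), a median of 26.8 rpmm in small intestine and of 1.22 rpmm in brain. Its difference was 2.90 ± 0.09 in marrow, 2.25 ± 0.10 in small intestine and -1.63 ± 0.10 in brain. Snord93, which guides methylation of 18S ribosomal RNA, had 971 to 4067 rpmm in marrow (median 1909, difference 2.73 ± 0.11) and a median of 1081 rpmm in small intestine (1.90 ± 0.12). Snord42b (2.49 ± 0.13), Snord7 (2.39 ± 0.14), a guide of the U6 RNA, and Snord14a (2.34 ± 0.09), a copy of U14 in Rps13, were the others.

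Snord123 was highest in pancreas and kidney. It is an orphan in an intron of Snhg18. Pancreas had 3.78 to 4756 rpmm with a median of 1779 rpmm (n = 45), kidney a median of 1324 rpmm and small intestine and GAT 847 and 846 rpmm. Brain was lowest with 10.6 to 75.2 rpmm (median 36.2), and liver (109), BAT (115.7) and marrow (117.3) lay close to each other above it. The differences were 1.96 ± 0.16 in pancreas (adjusted p = 6.8e-31), 1.65 ± 0.15 in kidney, -3.40 ± 0.15 in brain and -1.88 ± 0.15 in liver. The RNA with the most similar tissue medians was miR-152-3p (rho = 0.691 over 16 tissues). In the parabiosis cohort Snord123 was highest in GAT (median 1540 rpmm) and kidney (1479) and lowest in liver (108).

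Liver was marked by Snord118, Snord13 and Snord45b. Snord118 had 3553 to 34464 rpmm in liver with a median of 13567 rpmm (n = 52), against 8202 rpmm in spleen and 5351 rpmm in marrow, and its liver difference was 2.39 ± 0.14 (adjusted p = 3e-54). Snord13 (U13), which assists the acetylation of 18S ribosomal RNA, had a median of 1209 rpmm in liver (2.13 ± 0.12) and of 101 rpmm in bone (-1.96 ± 0.12), where it was lowest. Both lie between genes and have no host. Snord45b in Rabggtb had a median of 1570 rpmm in liver (2.19 ± 0.16). Of the 7 members known for a part in the cleavage or processing of ribosomal RNA rather than methylation alone (Snord118, Snord13, Snord22 and 4 copies of Snord14), 5 were higher in liver and 7 in spleen, with median differences of 1.22 and 1.42 beside 0.87 and 1.39 for all members.

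Spleen was marked by Snord17, the longest member (238 bases), which lies in an intron of Snx5. It had 20.1 to 4402 rpmm there (median 1379, n = 55), and the next tissue, marrow, had a median of 358 rpmm. The difference was 3.04 ± 0.11 (adjusted p = 3.9e-122). Snord17 was called higher in spleen under all 4 scalings.

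Kidney and brain differed in Snord1a, brain and pancreas in Snord67. Snord1a, a guide of 28S ribosomal RNA, had a median of 4825 rpmm in kidney (1.74 ± 0.12) and of 350 rpmm in brain (-2.17 ± 0.12). Snord67, a guide of the U6 RNA, had medians of 2708 rpmm in brain (1.61 ± 0.18) and 247 rpmm in pancreas (-2.61 ± 0.19). Pancreas was further lower in Snord23 (median 194 rpmm, -2.95 ± 0.16), Snord7 (18.11 rpmm, -2.83 ± 0.15), Snord90 (1912 rpmm, -2.74 ± 0.16), Snord50b (-2.49 ± 0.13) and Snord35b (-2.47 ± 0.18), whereas Snord49b was higher (86.4 rpmm, 1.03 ± 0.10). Snord50a (median 1451 rpmm, 1.21 ± 0.12) and Snord50b (1960 rpmm, 1.28 ± 0.13), guides of 28S ribosomal RNA in Snhg5, were higher in SCAT. Their reads could also come from near-identical copies, so that these values are uncertain.

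**Figure D3:**
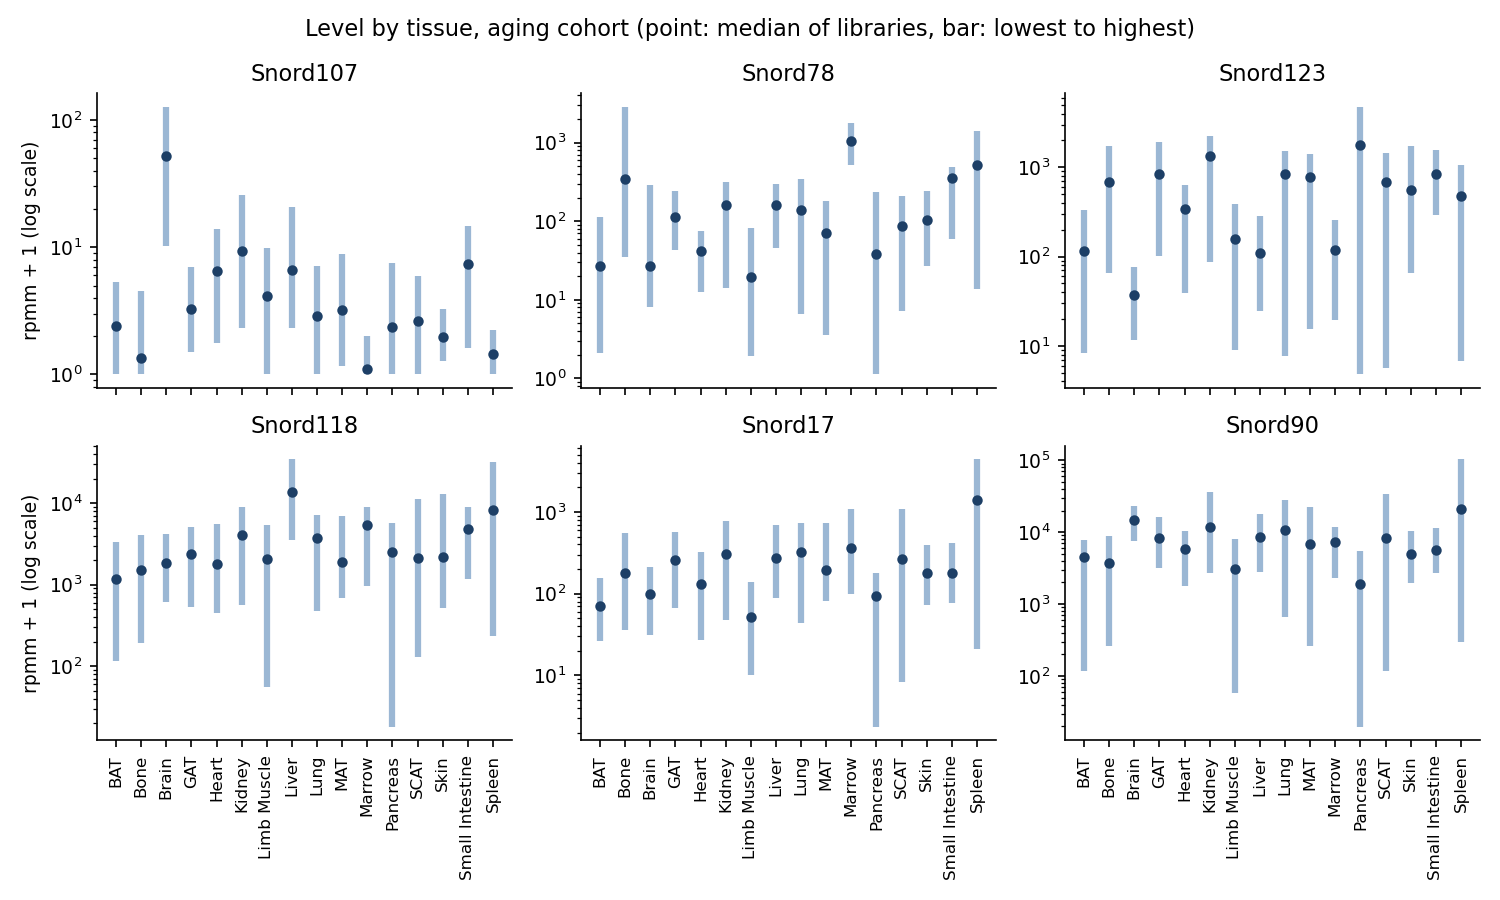
Level (rpmm + 1, log scale) of 6 members in the 16 tissues of the aging cohort. Points are medians over libraries and bars run from the lowest to the highest library, with Snord107 highest in brain (51.1 rpmm), Snord78 in marrow (1047), Snord123 in pancreas (1779), Snord118 in liver (13567), and Snord17 (1379) and Snord90 (20962) in spleen.

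Over all members the range of tissue medians was 1.71 to 5.73 on the log2 scale, with a median of 2.94. Snord61, a guide of 18S ribosomal RNA hosted by Rbmx on the X chromosome, varied least, from a median of 9.19 rpmm in small intestine to 32.5 rpmm in spleen. Spleen was the highest tissue for 49 members and marrow for 14. BAT was the lowest for 34, pancreas for 19 and limb muscle for 15.

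Members of a common host resembled each other. Across the 16 tissues, the 33 pairs of members within a host had a median Spearman rho of 0.879, and the 3126 pairs from different hosts or without a host 0.726 (the overlapping Snord80 transcripts were left out). These values describe tissue medians that share libraries and depth. The pairs within a host include the near-identical copies Snord14c and Snord14d (0.991) and Snord50a and Snord50b (0.988), whose reads could come from either copy. In Rpl13a, the 4 members Snord32a, Snord33, Snord34 and Snord35a had a rho of 0.853 to 0.959 with each other. The lowest pair within a host was Snord53 with Snord92 in Wdr43 (0.612). The 21 members in ribosomal protein genes had 19 higher calls in spleen, 15 in marrow and 20 lower calls in BAT (medians 1.47, 1.35 and -1.87), and the 59 other members 48, 26 and 52 (1.36, 0.93 and -2.04).

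Few members were called for a correlation with age. The Spearman correlation of the rpmm value with age was computed for 1278 pairs of a member and a tissue and called beyond 0.5 in either direction. Only 3 were called, 2 above and 1 below, whereas over all RNAs 1.13% of the pairs lay above 0.5 and 1.65% below -0.5. The median rho of the members was 0.07. An unadjusted permutation p under 0.05 was found for 202 of the 1278 pairs, a share that was not counted over all RNAs.

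Snord68 in marrow, a guide in Rpl13, had the smallest p of the members. Its median was 68.3 rpmm at 1 month (35.7 to 83.9, n = 6), 73.7 at 3 months (40.98 to 88.5, n = 6), 94.0 at 21 months (78.7 to 140, n = 6) and 97.6 at 27 months (81.2 to 142, n = 4). Values at the late ages lay mostly above those at 1 and 3 months, with overlap. The Spearman rho was 0.540 over 56 libraries (two-sided permutation p = 4e-05, adjusted p = 0.00167), Pearson r of the log values 0.518, and r 0.491 after the 2 libraries of the most extreme age were dropped. Within sets of 12 consecutive library numbers rho was 0.535 and within plates 0.474. It was 0.485 with median-ratio scaling, 0.230 with scaling to the summed member level and 0.443 without the 1-month libraries, so that the call was lost in each of these and within plates. Its rho in the other tissues ran from -0.265 in SCAT to 0.461 in bone (adjusted p = 0.0318), and the difference between tissues was not tested.

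Snord68 (chr8:123103038-123103123, plus strand): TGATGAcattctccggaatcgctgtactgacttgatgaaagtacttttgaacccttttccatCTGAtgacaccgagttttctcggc

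Snord17 in GAT was the other member called above 0.5. Its median was 164 rpmm at 1 month (64.8 to 235, n = 5), 255 at 3 months (137 to 258, n = 5) and 412 at 21 months (221 to 485, n = 4), and the 27-month libraries had 468 and 558 rpmm. The Spearman rho was 0.568 over 37 libraries (permutation p adjusted to 0.0119), Pearson r 0.578, and r 0.505 after dropping 2 libraries in the same way. The Spearman rho was 0.435 without the 1-month libraries and 0.462 with miRNA-read scaling, so that the call was lost in both. Snord61 in BAT was called below -0.5, with a rho of -0.505 (n = 31), but its permutation p adjusted to 0.0603, and rho was -0.460 without the 1-month libraries and -0.117 without the libraries of low summed miRNA level. There the 3-month libraries had 41.2 and 47.4 rpmm and those at 27 months 10.9 to 15.2 rpmm (median 12.1, n = 4), while only 1 library each stood for 1 and 6 months. The median rho of the members in BAT was 0.359, beside -0.291 over all RNAs. Within sets of library numbers 35 members were called rising there, beside 245 of 4175 RNAs rising and 214 falling. Within plates 9 members were rising, beside 82 of 4175 RNAs rising and 58 falling. With median-ratio scaling 9 members were rising as well, where the share over all RNAs is not given here. No member was called falling in any of these settings.

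By the permutation p instead of the size of rho, 14 pairs rose and 3 fell with age (adjusted p under 0.05, 3.79% of all pairs). Marrow had 7 of these, all rising (Snord68, Snord49b, Snord17, Snord16a, Snord61, Snord90 and Snord123, rho 0.379 to 0.540), and MAT, bone and lung 2 each. The 3 falling pairs were Snord99 (rho = -0.487), Snord22 (-0.470) and Snord66 (-0.451) in liver, with adjusted permutation p of 0.0137, 0.0188 and 0.0271.

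**Figure D4:**
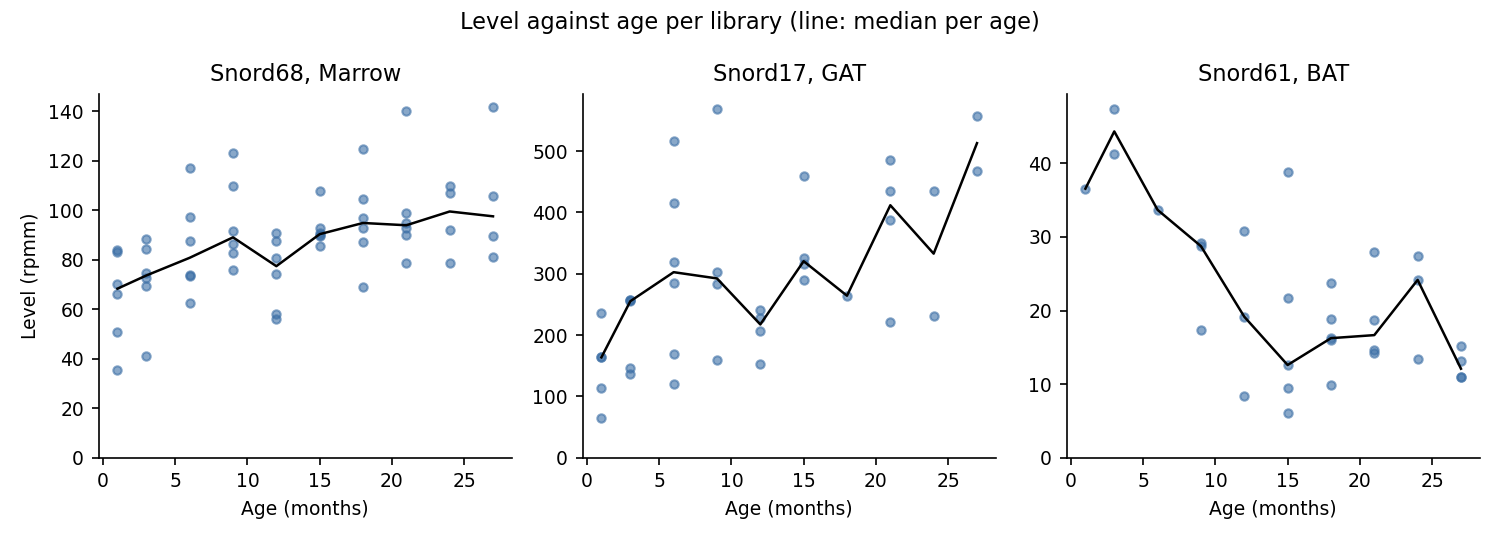
Level (rpmm) of Snord68 in marrow, Snord17 in GAT and Snord61 in BAT against age in months. Points are libraries and lines join the medians per age, which run from 68.3 to 97.6 rpmm for Snord68, from 164 to 513 rpmm for Snord17 and from 36.5 to 12.1 rpmm for Snord61 between 1 and 27 months.

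Between 3 and 21 months (AGE, 21 minus 3 months), 3 of 1118 tests of members were called (limma, adjusted p under 0.05 over all RNAs of a tissue), all higher, against 2.1% of all RNAs in both directions. Snord15b, a guide of 28S ribosomal RNA in Rps3, had 225, 12.3, 174 and 266 rpmm in the SCAT libraries at 3 months and 320 to 747 rpmm at 21 months (median 376, n = 6). The groups did not overlap, and the difference was 1.96 ± 0.47 (adjusted p = 0.0462). Snord8, a guide of the U6 RNA, had 256, 12.0, 102 and 176 rpmm at 3 months and 151 to 625.4 rpmm at 21 months (median 428), a difference of 2.15 ± 0.52 (adjusted p = 0.0462) with overlap. In SCAT these were among the few RNAs called higher (0.0616%). In both, 3-month library 16 had the low value, and its summed member level was 4122 rpmm beside 78834 to 106346 rpmm in the others. Neither was called without it, without 21-month library 27, 31, 47 or 50, or without any of several libraries of other ages that share the fit, whereas 33 or 26 members (21.5% or 11.7% of all RNAs) were called without 3-month library 43 or 48. In small intestine, where 16.8% of all RNAs were called higher, Snord61 had 11.04, 10.03, 2.79, 3.57 and 7.59 rpmm at 3 months and 10.2 to 25.8 rpmm at 21 months (0.97 ± 0.28, adjusted p = 0.0424). The groups overlapped. The call was lost without 3-month library 07, 24 or 29 or 21-month library 45 or 49. Leaving out any other of these libraries gave 2 to 4 calls, 1 higher and the rest lower (16.6% to 26.9% of all RNAs in both directions).

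The other later ages against 3 months gave 8 further calls of members, against 0.536% of all tests, and all 8 were higher in MAT at 27 months, where 5.75% of all RNAs were higher. Snord14a had 58.6, 55.6 and 46.1 rpmm at 27 months and 11.03, 6.82, 14.7, 18.7 and 12.7 rpmm at 3 months, a difference of 2.04 ± 0.48 (adjusted p = 0.00580) with no overlap. Snord15a had 271, 353 and 217 rpmm against 91.7, 114.4, 115.7, 107 and 56.6 rpmm (1.54 ± 0.43, adjusted p = 0.0172). Snord4a, which also lies in Rpl23a, had 4062, 4281 and 3983 rpmm against 1117, 1522, 1811, 1899 and 1556 rpmm (1.40 ± 0.43, adjusted p = 0.0296). Of the other 5, Snord15b (1.30), Snord69 (243, 243 and 120 rpmm against 65.9 to 119 rpmm), Snord92 (1.38) and Snord93 (1.17) did not overlap between the ages and Snord17 (1.60) did. All the MAT libraries at 27 months were closer to another tissue than to MAT by their miRNA profile, and their summed member level was 107065 to 166430 rpmm beside 54585 to 96530 rpmm at 3 months. None of the 8 was called with scaling to the summed member level or with median-ratio scaling. The smallest adjusted p was that of Snord14a, 0.462 and 0.220, with differences of 1.13 and 1.23. With miRNA-read scaling 33 members were called higher (260 of 3357 RNAs). The part of the miRNA profile in the difference was not tested. Without 27-month library 31 or 33, 1 call was left (5.01% or 4.82% of all RNAs). Without 3-month library 17 or 01 there were 2 or 3 (6.05% or 8.22%). Without 1-month library 35 or 21, which share the fit, there were 15 or 31 (23.9% or 33.2%). edgeR on the recovered reads gave adjusted p of 0.280 for Snord14a and above it for the other 7.

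Comparing 1 month with 3 months, 37 members were called, all lower in MAT at 1 month (2.48% of all RNAs over the tissues, 5.18% lower in MAT). Snord90 had 4891, 260 and 3969 rpmm at 1 month and 5241, 9553, 6130, 8698 and 5401 rpmm at 3 months (-1.98 ± 0.54, adjusted p = 0.00791). The low value belongs to 1-month library 21, which had a summed member level of 6418 rpmm and a summed miRNA level of 29644 rpmm beside 54559 rpmm or more and 451326 rpmm or more in the other 2 libraries. Without it no member was called, without 3-month library 12, 17 or 05 there were 19, 21 or 24 calls (25.3%, 16% or 28.4% of all RNAs), and without 1-month library 04 there were 58 (51.1%). The direction of the calls turned with the scaling. With miRNA-read scaling 6 members were called in MAT, all higher at 1 month (median difference 0.08, -1.26 as deposited). In that setting 2294 of 3357 RNAs were called higher. With scaling to the summed member level 12 members were higher and 1 lower, beside 2389 of 3357 RNAs higher. The median over all RNAs was 0.66 as deposited and 1.95 with either of these scalings, each time above that of the members. Snord12 (-1.86 ± 0.52) and Snord85 (-1.80 ± 0.52) showed the same library at the low end.

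In pancreas the members were higher at 1 month without a call. The median difference was 2.32, and the summed level was 120339, 146588, 99178, 123046 and 91858 rpmm at 1 month and 492, 76365, 73234, 61405 and 20416 rpmm at 3 months, with no overlap. Library 2 at 3 months, with 492 rpmm, was by its miRNA profile closest to another tissue. Without 3-month library 25, 37 members were called (6.45% of all RNAs), and without library 10, 46 (8.22%). In a joint fit over the tissues, the pancreas difference between 1 and 3 months was above that of the other tissues for 76 of 79 members fitted (adjusted p under 0.05, 14.7% of all RNAs), a test added after these values had been seen. Without library 2 it was so for 0 of 79 members (0.116% of all RNAs), with a median of 1.21.

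Between males and females 1 member was called (0.819% of all RNAs over the tissues), Snord22 (U22), which acts in the processing of 18S ribosomal RNA and is hosted by Snhg1. In GAT, where 3.28% of all RNAs were lower in males, it had 218 to 2294 rpmm in males (median 1330, n = 20) and 941 to 4059 rpmm in females (median 2561, n = 13). The ranges overlapped, and the difference was -1.07 ± 0.27 (adjusted p = 0.0180). The summed member level in GAT had a median of 98933 rpmm in males and 131541 rpmm in females. Against the other tissues the difference of Snord22 in GAT was not called (adjusted p = 0.218). Its call was also lost with miRNA-read (adjusted p = 0.0701), median-ratio (0.139) and member-sum scaling (0.0652) and with edgeR on the recovered reads (0.175). Without the libraries of low summed miRNA level Snord22 kept its call (adjusted p = 0.0334). In that setting 13 members were also called lower in males in SCAT (171 of 3208 RNAs in both directions). In skin 4 were called higher in males (185 of 3244 RNAs in both directions).

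After parabiosis, aged mice joined to a young one were compared with aged mice joined to an aged one (REJ, HA minus IA), which asks for the effect of a young circulation on aged tissue. In REJ 2 members were called, both lower in heart (1.06% of all RNAs over the tissues, 2.23% lower in heart). Snord98, which guides methylation of 18S ribosomal RNA from an intron of Ccar1, had 112 to 369 rpmm in HA (median 262, n = 7) and 247 to 507 rpmm in IA (median 410, n = 8). The difference was -0.76 ± 0.21 (adjusted p = 0.0201), with overlap. It differed from that of the other tissues by -0.93 (adjusted p = 0.0483) in a joint fit over the tissues. That fit held no term for the mouse. Snord118 had 1383 to 3026 rpmm in HA (median 2113) and 2019 to 5476 rpmm in IA (median 3524), a difference of -0.73 ± 0.21 (adjusted p = 0.0234), with overlap. Against the other tissues its difference was not called in the joint fit (-0.83, adjusted p = 0.0717). In both, HA libraries 1A and 2A were lowest, with 115.996 and 112.4 rpmm of Snord98 and 1429 and 1383 rpmm of Snord118. Without either of them, or without IA library 6B, 7B or 9B, neither member was called, whereas 6 members (22.7% of all RNAs) were called without HA library 11A and 4 (14.8%) without IA library 19A. The summed member level in heart was 88056 to 104117 rpmm in HA and 58082 to 125946 rpmm in IA. No call was made with edgeR on the recovered reads or with the sequencing pool as a covariate (adjusted p of Snord98 0.1004 and 0.213, of Snord118 0.0546 and 0.123).

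Snord98 (chr10:62765576-62765640, minus strand): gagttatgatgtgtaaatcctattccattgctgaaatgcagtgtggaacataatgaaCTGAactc

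Young mice joined to an aged one were compared with young mice joined to a young one (ACC, HY minus IY), which asks for the effect of an aged circulation on young tissue. No member was called by limma in ACC, nor was any RNA (0% of all RNAs), and no test of a member had an unadjusted p under 0.05, while 616 tests of all RNAs did. edgeR on the recovered reads also called no member. The smallest p of the members was that of Snord59a in liver, with 210 to 576 rpmm in HY (median 453, n = 7) and 426 to 748 rpmm in IY (median 505, n = 8), a difference of -0.40 ± 0.20.

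The aged and young groups were also compared within each kind of pairing. In IA minus IY no member was called by limma (1.43% of all RNAs), and edgeR called none. An unadjusted limma p under 0.05 was found in 33 of 480 tests of members and in 2372 of 19292 tests of all RNAs. Nearest to the threshold were Snord21 in heart, with a median of 491 rpmm in IA and 328 rpmm in IY (0.62 ± 0.19, adjusted p = 0.0567), and Snord1c in heart (0.56 ± 0.18, adjusted p = 0.0720). In HA minus HY 3 members were called (3.05% of all RNAs), Snord93 and Snord88c in kidney and Snord98 in heart. Against the other tissues none of them was called in the joint fit (adjusted p of 0.998, 0.998 and 0.345). Snord93 in kidney, where 3.77% of all RNAs were higher, had 264 to 775 rpmm in HA (median 467, n = 6) and 206 to 271 rpmm in HY (median 227, n = 7). Only HA library 20A, with 264 rpmm, lay within the range of HY, and the difference was 0.98 ± 0.19 (adjusted p = 0.00170). Snord88c in kidney, a guide of 28S ribosomal RNA, had 207 to 819 rpmm in HA (median 307) and 176 to 227 rpmm in HY (median 208), a difference of 0.68 ± 0.21 (adjusted p = 0.0465), and the highest value belongs to HA library 14A. Without that library 1 member was called in kidney, as without any library of HY, HA library 11A or 12A or several libraries of IA and IY. Without HA library 20A 5 were called (7.24% of all RNAs). Snord88c was not called with miRNA-read (adjusted p = 0.0665), median-ratio (0.0649) or member-sum scaling (0.235). Snord98 was lower in heart also in this comparison, where 2.72% of all RNAs were lower (HY 300 to 433 rpmm, median 332, -0.66 ± 0.22, adjusted p = 0.0473), and it shares the HA libraries with REJ. This call was lost without any single library of HY or IY, without HA library 1A, 2A, 5A or 14A and without IA library 6B, 7A, 7B or 19B. Without HA library 11A there were 7 calls in heart (24.8% of all RNAs). The call of Snord98 was also lost with edgeR on the recovered reads (adjusted p = 0.0833), miRNA-read scaling (0.0865) and the sequencing pool as a covariate (0.0569). It was kept with median-ratio (0.0439) and member-sum scaling (0.0472). The sequence of Snord93 holds CTGA but no TGATGA in the searched window.

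Snord93 (chr5:23852210-23852280, plus strand): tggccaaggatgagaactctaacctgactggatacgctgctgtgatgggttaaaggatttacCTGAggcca

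The IY and IA libraries give the context of these values. Snord93 in kidney had a median of 227 rpmm in IY (193 to 334, n = 8) and of 276 rpmm in IA (248 to 504, n = 8), so that HA had the highest median of the 4 groups. Snord98 in heart had a median of 324 rpmm in IY (269 to 369, n = 8), which lay between those of HA and IA.

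**Figure D5:**
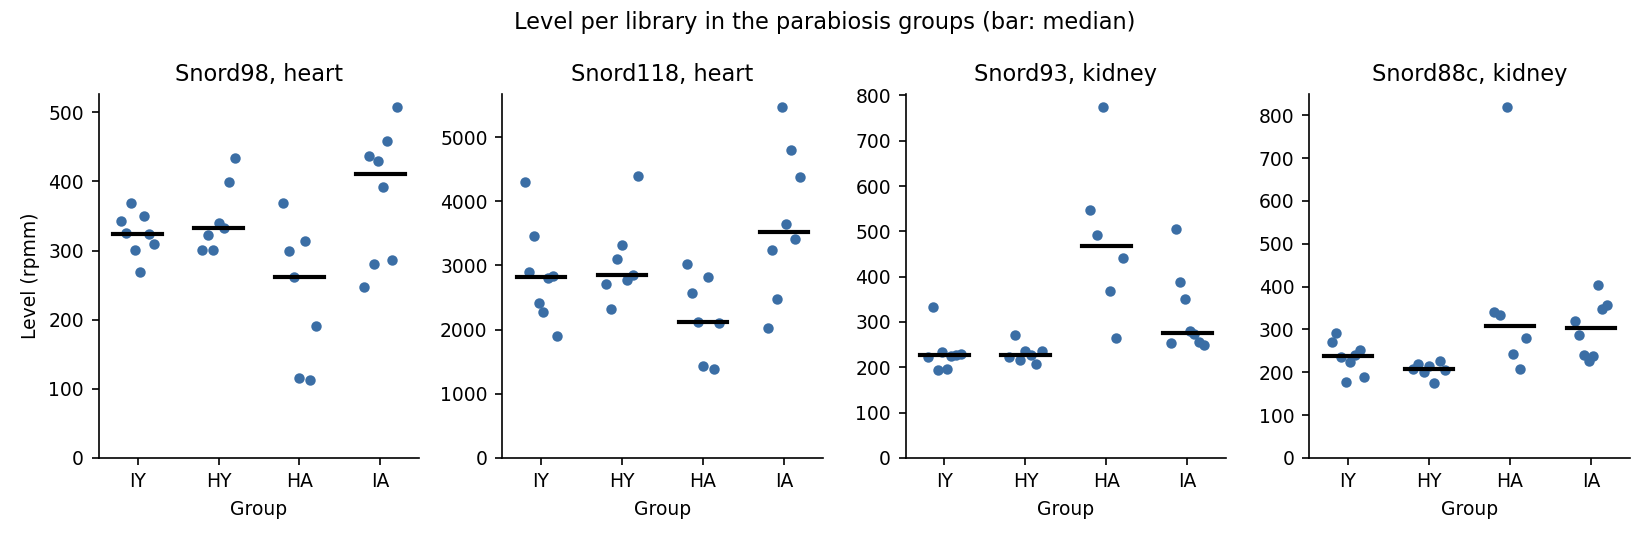
Level (rpmm) of Snord98 and Snord118 in heart and of Snord93 and Snord88c in kidney in the 4 parabiosis groups. Points are libraries and bars are medians, and HA has the lowest medians in heart (262 and 2113 rpmm) and the highest in kidney (467 and 307 rpmm).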

How the data were processed

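Small RNA libraries (single-end reads of at most 50 bases, BGISEQ500RS) were processed by the authors with miRMaster and Bowtie, allowing 1 mismatch against miRBase, GtRNAdb, RNACentral and Ensembl (mm10), and libraries under 2 M aligned reads were left out. The deposited signal values are reads scaled by the authors to the mapped reads of the library (rpmm), with the first paralog only and without RNAs that never reached 1 rpmm. Of 771 columns in the aging table, 2 were not used. The value of 1 read was recovered from the smallest values, and outside the miRNAs 100% of the values were whole reads within 0.05 (miRNAs 99.0% and 98.8% in the 2 tables).

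Per tissue, RNAs that reached 1 rpmm in a minimum of 10% of libraries were tested on log2(rpmm + 1) with limma 3.58.1 (R 4.3.3, eBayes with trend), which understates changes of low RNAs. All groups of a tissue shared 1 fit, and p-values were adjusted by the Benjamini-Hochberg method over all RNAs of the tissue and contrast (threshold 0.05). Age was correlated by Spearman's rho with 100000 shuffles (Python 3.11.15, scipy 1.17.1), and rho beyond 0.5 was called. Age contrasts needed 3 libraries per age. Members named are the 10 highest per length, the 10 with the widest range between tissues, the largest call per tissue and direction, the extreme rho per tissue, up to 3 called members per contrast, tissue and direction, and listed members. Those called under all 4 scalings and further called members were named after their values had been seen. Alternatives were other pseudocounts, filters and scalings, batch terms, edgeR 4.0.16 on recovered reads, and libraries left out. The scripts were tested on simulated data. The members and lists were chosen with earlier results of these data known. The genotype of the HY mice is not reported here.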

Additional observations from a re-analysis of the deposited data

Results flagged for a closer look

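The summed level of the members had a library far from the rest in 8 of 158 groups of libraries, where chance alone flags about 1 in 20. In spleen at 3 months library 01 had 7809 rpmm, with the nearest other at 250708 rpmm. In lung at 6 months library 55 had 12454 rpmm (nearest 102886), in marrow at 24 months library 20 had 136058 rpmm (nearest 199885) and in BAT at 27 months library 19 had 45795 rpmm (nearest 61148). In liver of HY mice library 2B had 69584 rpmm (nearest 145507). Libraries above the rest were 41 in brain at 15 months with 97106 rpmm (nearest 63885), 34 in kidney at 27 months with 198005 rpmm (nearest 133576) and 14 in skin at 18 months with 163171 rpmm (nearest 94321). Of these 8, 3 had a low summed miRNA level (spleen 01, skin 14 and liver 2B).

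In joint fits over the tissues, which were added after the data had been seen, the difference in 1 tissue was compared with that in the other tissues for each member (limma, adjusted p under 0.05). Between 1 and 3 months it differed for 76 of 79 members in pancreas (14.7% of all RNAs in the fit), for 35 in limb muscle (15.5%) and for 15 in MAT (19.5%), higher in pancreas and lower in the others. Without 3-month pancreas library 2 (492 rpmm) it differed for 0 members in pancreas (0.116% of all RNAs). For AGE it differed for 3 members in limb muscle (3.64% of all RNAs), 2 in pancreas (11.7%) and 3 in spleen (26.4%). For REJ it differed for 1 member in heart (Snord98, 2.93% of all RNAs) and 4 in MAT (9.56%). For sex it differed for 52 members in BAT (10.1% of all RNAs), all higher in males, for 8 in bone (6.71%) and for 17 in limb muscle (27.6%). The summed level in BAT had a median of 47379 rpmm in 14 males, 4 of them with a low summed miRNA level, and of 5462 rpmm in 10 females, 5 of them with a low one, and the part of these libraries in the difference was not tested.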

How the results depend on the processing

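No named value changed sign. Of 600 alternative values of the 51 named values, 469 kept their side of the threshold, 4 passed it newly and 127 no longer passed it. The count of tissue calls (386) was 89 with scaling to the summed member level. The 3 age correlations were 11 with median-ratio scaling, 37 with sets of 12 library numbers removed, 13 with plates removed, 18 in males only, 6 without the 24- and 27-month libraries and 17 by adjusted permutation p. Without the 1-month libraries 3 pairs were called as well, but none of the 3 named ones. The 3 AGE calls were 0 with a pseudocount of 0.1, with median-ratio scaling, with plates and with edgeR, 1 without the filter, with scaling to the summed member level, without libraries closest to another tissue, with sets and in males, 8 with miRNA-read scaling, 92 by a ratio of means past 3/2 or 2/3 with unadjusted p under 0.05, and 1 to 34 when leaving out libraries in turn. The 11 calls of all later ages were 7 with a pseudocount of 0.1, 47 with miRNA-read, 2 with median-ratio and 3 with member-sum scaling (neither of the last with a call in MAT at 27 months), 1 without libraries closest to another tissue, where MAT at 27 months had no library left and could not be fitted, 32 with plates, 4 with edgeR, 42 without low-miRNA libraries and 4 to 143 when leaving out libraries. The 37 calls between 1 and 3 months were 6 (in MAT all higher), 56 and 15 (in MAT 12 higher and 1 lower) with these 3 scalings, 24 with plates, 2 in males, 1 with edgeR, 0 without low-miRNA libraries, where MAT had under 3 libraries at 1 month and could not be fitted, and 0 to 83 when leaving out libraries. The 1 sex call was 2 with a pseudocount of 10 and with all deposited rows, 3, 0 and 5 with these 3 scalings, none of them Snord22 in GAT, 6 with sets and 18 without low-miRNA libraries.

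The 2 REJ calls were 0 with edgeR and with the pool, 14 by the ratio of means and 0 to 6 when leaving out libraries. ACC had 0 calls under every alternative run. IA minus IY (0) had 1 with a mean of at least 10 rpmm, with all rows and with the pool, 3 with miRNA-read scaling, 15 by the ratio of means and 0 to 5 when leaving out libraries. The 3 calls of HA minus HY were 1 without the filter and with miRNA-read scaling, 6 with member-sum scaling, 11 by the ratio of means and 2 to 9 when leaving out libraries. The joined mice share a number, and the comparisons held no term for the pair. Of 39 pairs of HA and HY libraries, 22 deviated together with a correlation over 0.1 (-0.494 to 0.771). Every pair did so in limb muscle only. In IA and IY both libraries of a number, such as 6A and 6B, stood in one group and were counted separately. Whether these deviated together was not tested, and the p-values of REJ, ACC and IA minus IY do not account for it. With the pair as a replicate block HA minus HY had 1 call, Snord93 (adjusted p = 0.0302), without Snord98 (0.0966) and Snord88c (0.141). Apart from settings that leave out libraries, the cause of these shifts was not tested. The precision of low members was limited by depth, and in marrow 3 reads corresponded to 0.154 rpmm.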
